A study of Mus musculus with 2 samples.

Results

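A small group of nuclei from embryonic mouse cortex was picked out by the genes Trps1 and Nrp2 and is described here as the gated nuclei. A nucleus entered the group when it had at least 500 detected genes, at least 1 UMI (a counted RNA molecule) of Trps1, and at least 1 UMI of 4 or more of the 7 genes Nrp2, Tafa1, Slit3, Fign, Dsc3, Grik1 and Sphkap. It also had to hold at most 1 UMI of Zbtb20 and 0 UMI of Gad2, Slc1a3, Hs3st4, Tcerg1l and Trp73. This gate kept 105 of 17198 nuclei, 26 of 6467 in the library labelled MEN1-F/F and 79 of 10731 in the library labelled MEN1-NCKO. The series title concerns menin, the Men1 product, and the receptor EphA4 in late-born cortical neurons. Each genotype label is carried by 1 library of nuclei from dissected neocortices, read with the 10x Genomics 3' version 3 kit. The labels used here name neither the age nor the number of the embryos, nor the Cre driver and the Men1 exons behind the label NCKO. No test is possible with 1 library for each label, and each interval below covers counting error only.

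Trps1 encodes a zinc finger repressor of the GATA family, and Nrp2 encodes a receptor for class 3 semaphorins that steers axons and migrating neurons. Excitatory neurons of the telencephalon arise in the pallium, which gives rise to the layered neocortex and also to the piriform cortex, the hippocampal formation, the claustrum and the pallial amygdala. Transcription factors mark these fields: Foxp2 and Tle4 are typical of layer 6, and Bcl11b of layer 5 and of several fields outside the neocortex. A dissected neocortex can carry some of the neighbouring pallium with it.

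The gated nuclei held more UMIs than a typical nucleus. Their UMIs came to 171240 in the F/F-labelled and 466564 in the NCKO-labelled library, with medians of 6495.5 and 5203 UMIs per nucleus. Over all nuclei the medians were 3817 and 3779. A floor of 3 UMIs therefore stood at 17.5 CPM (a count scaled by the summed UMIs of its group, the usual counts-per-1e6 scale) in the F/F-labelled and 6.43 CPM in the NCKO-labelled gated nuclei. The 2 libraries shared 15 barcodes, of which 0 F/F-labelled and 1 NCKO-labelled nucleus lay inside the gate. Doublet calls marked 1 and 4 gated nuclei, which were kept and left out as an alternative.

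The gate genes themselves only describe the choice. Trps1 had a median of 7 UMIs per gated nucleus. Nrp2 was detected in 93.3% of them and Slit3, a secreted axon repellent, in 93.3%. Fign and Dsc3 were rarer, in 33 and 21 of the 105 nuclei. Much of the group lay close to its border: 58 of the 105 nuclei held exactly 4 of the 7 positive genes (19 F/F-labelled, 39 NCKO-labelled), and 48 further nuclei missed entry with exactly 3 (12 and 36). At the Zbtb20 limit, 37 nuclei were inside with 1 UMI and 19 outside with 2. The limits on Slc1a3, a glial glutamate transporter, and on Hs3st4, a sulfotransferase gene of layer 6 neurons, each removed 57 nuclei that met every other condition.

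When all nuclei were clustered without the 14 gate genes, most gated nuclei still fell together. One cluster of 938 nuclei held 92 of the 105 (24 of 26 with the F/F label, 68 of 79 with the NCKO label), and 13 were scattered over 7 of the other 29 clusters. Among the 20 nearest neighbours of a gated nucleus, a mean of 3.14 were gated, against 1.94 around the other nuclei of that cluster and 0.0185 elsewhere. The gate thus sampled 92 nuclei of a larger population, and 86.0% of the nuclei that it lost through Slc1a3 alone belonged to that same cluster. The 846 other nuclei of the cluster are called the rest of the cluster. Their values are given below for some Eph and ephrin genes and for some genes compared between the libraries. The other comparisons with excitatory nuclei hold no such values, so they do not tell the gated nuclei from the rest of the cluster.

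The label "excitatory" was checked against 6 genes of glutamate transport and of the excitatory cortical lineage, among them Slc17a7, Slc17a6, Neurod2, Neurod6 and Tbr1. At least 2 of these 6 were detected in 16 of 26 F/F-labelled gated nuclei (61.5%) and 40 of 79 NCKO-labelled ones (50.6%). The share was 17.2% and 21.0% in inhibitory nuclei with 2 or more Gad2 UMIs, whose median was 3978 UMIs against 5422 for the gated nuclei. With each nucleus thinned to 2000 UMIs the shares were 19.2% and 20.3% in the gate against 7.75% and 10.2% in the Gad2 nuclei. Slc17a7, the vesicular glutamate transporter of most cortical projection neurons, was found in 36 gated nuclei, 34.3% (exact binomial 95% interval 25.3% to 44.2%), against 5.31% of Gad2 nuclei. Thinned, these shares were 15.2% and 1.92%. Other excitatory genes were less apart from the Gad2 nuclei: Neurod6, a bHLH factor of projection neurons, was found in 30.5% of gated and 18.7% of Gad2 nuclei, and in 10.5% and 9.14% after thinning. The excitatory list was also lower than in other excitatory nuclei, which were chosen by 6 of these genes. Of its 10 members 6 were at least 1.5-fold lower and 1, Slc17a7, was higher, with a median of -1.01 on log2(CPM + 5).

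Markers of other classes were low. The gate required 0 UMI of Gad2 and of Slc1a3, so this follows in part from the choice of nuclei. The 16 inhibitory markers summed to 1051 and 1337 CPM in the gated nuclei of the F/F-labelled and NCKO-labelled library, against 14747 and 13140 CPM in the Gad2 nuclei and 1802 and 1837 CPM in other excitatory nuclei. Gad1, which makes GABA, had 0 and 1 UMI. The 11 markers of radial glia and progenitors summed to 23.4 and 34.3 CPM, with Sox2, Eomes and Neurog2 at 0 UMI. The 9 glial markers summed to 17.5 and 10.7 CPM, with Aldh1l1, Gfap, Pdgfra and Sox10 at 0. Vascular and immune markers reached 23.4 and 23.6 CPM.

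To show what the gated nuclei expressed beyond the gate, their levels were set against 5654 other excitatory nuclei (2211 and 3443), which held at least 2 of the 6 genes above and no Gad2 or Slc1a3. Because the gate chose nuclei by their own counts, these differences are a description without a test. They are given on the scale log2(CPM + 5) as the mean of the differences within each library. Of 14270 genes compared, 243 were more than 2-fold higher in the gated nuclei (1.7%) and 674 more than 2-fold lower (4.72%), and the median difference was -0.11.

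The 20 genes that stood highest held 2 lincRNAs (Gm12371 and 6530403H02Rik) and 18 other genes of varied roles. Lingo2, a leucine-rich repeat protein of the neuronal surface, was at 4759 CPM in F/F-labelled and 6908 in NCKO-labelled gated nuclei against 1045 and 1695 in other excitatory nuclei, and was detected in 103 of 105 gated nuclei. Npas3, a bHLH-PAS transcription factor, was at 2184 and 1307 CPM against 315 and 273. Ntng1, a netrin-like membrane protein that guides axons, was at 461 and 574 CPM against 93.6 and 145. All 3 were higher than the reference in both libraries. The lincRNA Gm12371 was highest by fold, at 64.2 and 87.9 CPM against 3.39 and 8.96, a mean log2 difference of 2.89. It lies on chromosome 4 (GRCm38) from 36952966 to 36988032, next to Lingo2, and was detected in 31.4% of gated nuclei (13.3% thinned) against 5.61% of Gad2 nuclei (2.47% thinned). The 20 highest genes, which also held Ndst4, Stxbp6, Pard3b, Cbln4, Thsd7a, Epha6, Gda, Prkg2, Camk2d, Chodl, Hs6st3, Oxr1, Vwc2l and Sema5b, were past 2-fold in each of the libraries. Npas3 and Thsd7a were not limited to these nuclei: they were detected in 46.7% and 37.1% of gated nuclei and 50.7% and 32.0% of Gad2 nuclei after thinning, and in 56.2% and 59.0% against 58.5% and 44.9% before.

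**Figure D1:**
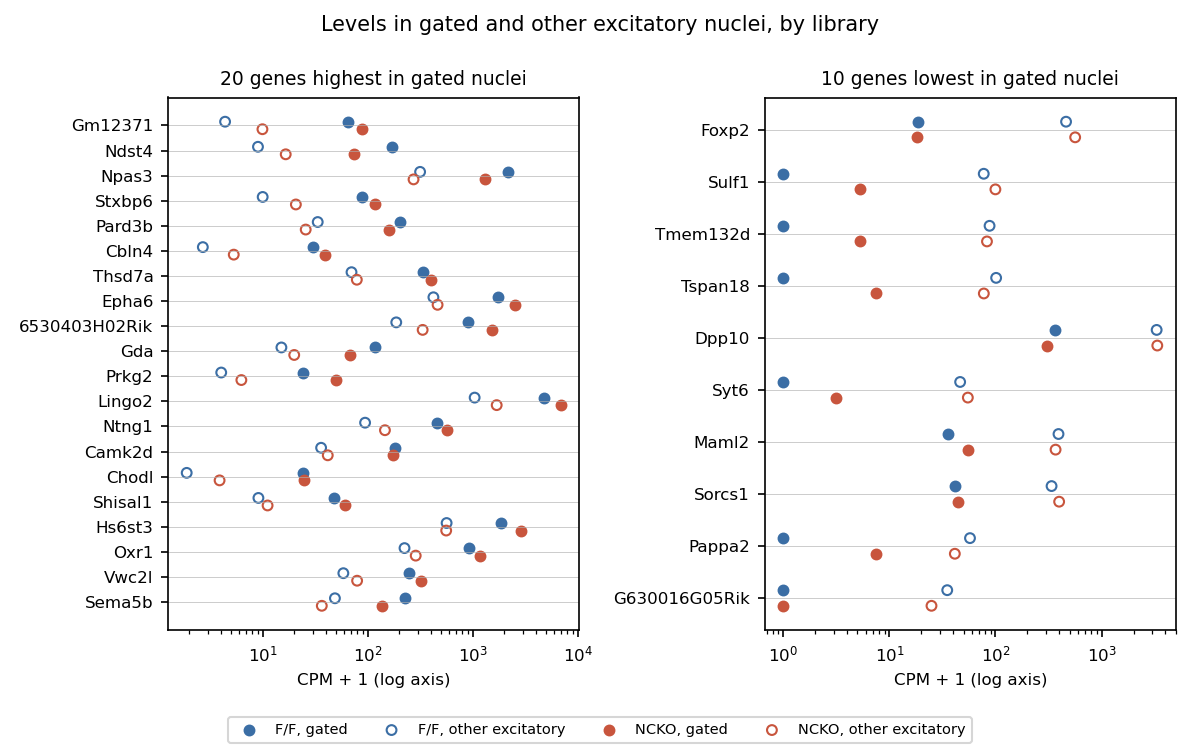
Levels of the 20 genes highest and the 10 lowest in gated nuclei (filled) against other excitatory nuclei (open), as CPM + 1 on a log axis, with the F/F-labelled library in blue and the NCKO-labelled one in red. Filled and open points of the same colour do not cross in any of the 30 genes, and Lingo2 and Dpp10 are the most abundant of each panel in gated and other nuclei respectively.

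The lowest genes were led by layer 6 genes. Foxp2 was at 17.5 and 17.1 CPM in gated nuclei against 461 and 563 CPM in other excitatory nuclei. Sulf1, an extracellular sulfatase, was at 0 and 4.29 CPM against 76.5 and 98.8. Dpp10, an auxiliary subunit of Kv4 potassium channels, was at 362 and 302 CPM against 3302 and 3349. All 8 layer 6 genes listed (Foxp2, Tle4, Tbr1, Sulf1, Zfpm2, Sox5, Nxph3 and Syt6) were at least 1.5-fold lower, with a median of -2.43, where 16.3% of all genes were 1.5-fold lower and 6.52% were 1.5-fold higher. The gate excluded the layer 6 gene Hs3st4, so this follows in part from the choice of nuclei.

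A reference that passes the same limits was therefore used as well. It held 929 and 1335 other excitatory nuclei with 0 UMI of the 5 excluded genes and at most 1 of Zbtb20, and was set against the 56 gated nuclei (16 and 40) that meet the excitatory criterion. As the mean of the libraries, the 20 highest genes were all past 2-fold in this comparison too, and 9 of the 10 lowest. Ndst4 rested on the F/F-labelled library, at 245 against 3.54 CPM, and was level under the NCKO label, at 11.3 CPM from 3 UMIs against 10.3. Of 9 excitatory genes compared 5 were at least 1.5-fold lower, with a median of -0.61. Layer 6 genes differed less: 3 of 6 compared were at least 1.5-fold lower, with a median of -0.57. Sox5 had a mean of -0.02, from 0.47 in the F/F-labelled and -0.52 in the NCKO-labelled library. Over all 11246 genes compared, 8.75% were 1.5-fold higher, 23.1% were 1.5-fold lower and the median was -0.15.

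The region markers gave 1 list that stood high. Of the 7 genes listed for the piriform cortex, the olfactory cortex ventral to the neocortex, 6 could be compared with the matched reference. Of these 6, 5 were at least 1.5-fold higher, with a median of 1.73, where 8.75% of all genes were higher. The list was written with earlier results of these data known, and the matched reference was chosen after seeing the data. Bcl11b was at 245 and 324 CPM in gated nuclei against 65.9 and 83.8 CPM. Ntng1, also among the 20 highest genes above, was at 312 and 558 CPM against 58.3 and 92.7. Reln, the extracellular glycoprotein that orders cortical layers and that some piriform neurons make, was at 75.9 and 200 CPM against 23.2 and 48.5. Nr2f2, a nuclear receptor of caudal and ventral forebrain, was at 92.8 and 56.5 CPM against 13.1 and 25.3, and Lmo3 at 287 and 173 CPM against 180 and 113. All 5 were higher in both libraries. Cux1, an upper layer factor on the same list, was lower at 413 and 162 CPM against 787 and 438, and Calb2 was too rare to compare.

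The other region lists did not show such a share. Of the members compared with the matched reference, at least 1.5-fold higher were 3 of 8 for the basolateral amygdala (Lmo3, Tfap2d and Nr2f2), 1 of 5 for the claustrum, 2 of 6 for the subiculum, 2 of 5 for the entorhinal cortex, 0 of 5 for the hippocampus and 1 of 4 for retrosplenial and cingulate cortex. Of factors graded along the cortex, 1 of 5 high caudally and 0 of 4 high rostrally were so. The subplate list had 2 of 4 higher and a median of 0.52. The upper layer list had 1 of 12 higher and 6 lower. Lists overlap: Reln also counts for Cajal-Retzius cells and the entorhinal cortex, and Bcl11b for layer 5 and the subiculum.

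**Figure D2:**
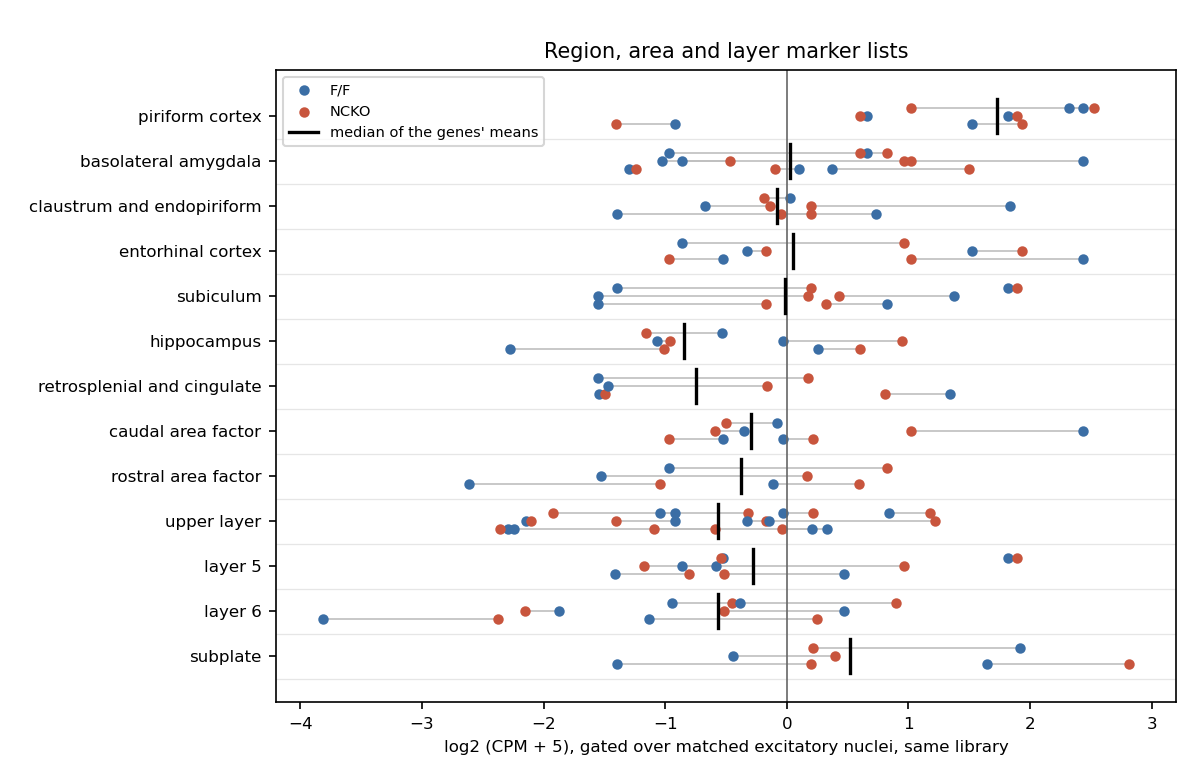
Difference of each listed gene between gated nuclei and matched excitatory nuclei of the same library, on log2(CPM + 5), by region, area or layer list (blue F/F, red NCKO, lines join the libraries, bars mark list medians). The piriform cortex list has the highest median, 1.73, with 5 of its 6 genes to the right of 0 in both libraries.

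The piriform count depended on the reference. Against all other excitatory nuclei, 2 of 7 piriform genes were at least 1.5-fold higher (Ntng1 and Nr2f2), 2 were lower, and the median was 0.26. Reln was lower there, at 87.6 and 186 CPM against 258 and 235, and Bcl11b was near level at 298 and 319 CPM against 232 and 284. In the matched comparison 3 F/F-labelled nuclei and 13 with the NCKO label held Reln, and 5 and 10 held Nr2f2. The nuclei held Bcl11b, Ntng1 and Nr2f2 in both libraries, and no region name was given to them.

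Guidance genes differed in both directions, and the medians of their lists were near 0. Among the Eph receptors, which read ephrins on neighbouring cells, Epha6 was at 1734 and 2544 CPM against 422 and 463 in other excitatory nuclei, Epha5 at 3142 and 3104 CPM against 1773 and 1768, and Epha3 at 3031 and 1502 CPM against 1382 and 1044. Against the matched reference Epha3 was near level, at 2514 and 1387 CPM against 1780 and 1520, while Epha6 was at 1375 and 2488 CPM against 259 and 380. Epha4 was lower, at 35.0 and 62.2 CPM against 208 and 126, and its ligand gene Efna5 was lower too, at 70.1 and 154 CPM against 408 and 397. These levels were not particular to the gate. In the rest of the cluster Epha6 was at 1838 and 2214 CPM and Epha5 at 2263 and 2606. Epha4 was at 85.0 and 54.2 CPM there and Efna5 at 91.2 and 124. Nuclei with Nrp2 and at least 5 UMIs of Zbtb20 had Epha6 at 2041 and 1442 CPM, but Epha4 at 642 and 409. Of 10 Eph receptors compared with other excitatory nuclei 4 were 1.5-fold higher and 4 lower, with a median of 0.20, where 6.52% and 16.3% of all genes were. Of 16 Slit, Robo and netrin genes 5 were higher, among them Slit2 (444 and 420 CPM against 123 and 128) and Unc5d (1495 and 2006 against 1151 and 888), and 3 were lower, a share near that of all genes. Their median was 0.10. Of 16 semaphorins 4 were higher, led by Sema5b and Sema6a, and 6 were lower, with a median of 0.08.

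Synaptic genes differed in both directions. Of 21 glutamate receptor genes 6 were at least 1.5-fold higher and 2 lower, where all genes had 6.52% higher and 16.3% lower. Against the matched reference 6 were higher and 1 lower, where all genes had 8.75% and 23.1%. The medians were 0.13 and 0.29. Against other excitatory nuclei, the kainate receptor subunit Grik2 was at 3364 and 3215 CPM against 1032 and 1372. The NMDA receptor subunit Grin3a was at 228 and 384 CPM against 68.1 and 91.5. Of 27 synaptic adhesion genes 5 were higher and 3 (Lrrtm4, Slitrk2 and Cntnap5c) lower, with a median of 0.06, where all genes had 6.52% higher and 16.3% lower. Il1rapl2 was at 1600 and 1042 CPM against 366 and 541, but near level against the matched reference, at 582 and 728 CPM against 465 and 734. Of 12 activin and BMP genes 11 could be compared, with 4 higher (Fstl4, Fstl5, Bmp6 and the activin receptor Acvr2a), 4 lower and a median of -0.30. Against the matched reference 3 of 9 were higher and 6 lower, with a median of -1.21. Of 10 Pou3f and SoxC factors and their neighbouring noncoding RNAs 9 were at least 1.5-fold lower, with a median of -1.12. Pou3f3, a factor of upper layer neurons, was at 23.4 and 6.43 CPM, from 4 and 3 UMIs, against 79.8 and 45.04.

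The gated nuclei were not uniform. The cluster that held most of them split into 10 sub-clusters when clustered again without the gate genes, and gated nuclei of both libraries were found in 7 of these. Leading genes are those of all nuclei of a sub-cluster, and some were rare in its gated nuclei. Htr2a was found in 5 of 21 gated nuclei of the first and Hmcn1 in 4 of 16 of the fifth, but Cdh20 in 14 of those 16. The first sub-cluster, led by Pdzrn3, Htr2a and Unc13c, held 4 F/F-labelled and 17 NCKO-labelled gated nuclei. The third, led by Gm43445, Mgat4c and Lmo4, held 4 and 16, and the fifth, led by Cdh20, Hmcn1 and Cacna2d3, held 5 and 11. These 3 together made up 57 of the 105 nuclei. The fourth, led by Dock10, Igf1 and Il1rapl2, held 5 and 4. The eighth, led by Reln, Stxbp6 and Spats2l, held 0 F/F-labelled and 10 NCKO-labelled gated nuclei, and 8 and 55 nuclei in all. A share of 0 of 26 allows up to 13.2% (exact binomial 95% interval), and the NCKO-labelled share was 12.7% (6.24% to 22.05%). Reln, which leads that sub-cluster, had 46 of its 87 NCKO-labelled UMIs there, while 12 of its 15 F/F-labelled UMIs lay in the fifth.

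**Figure D3:**
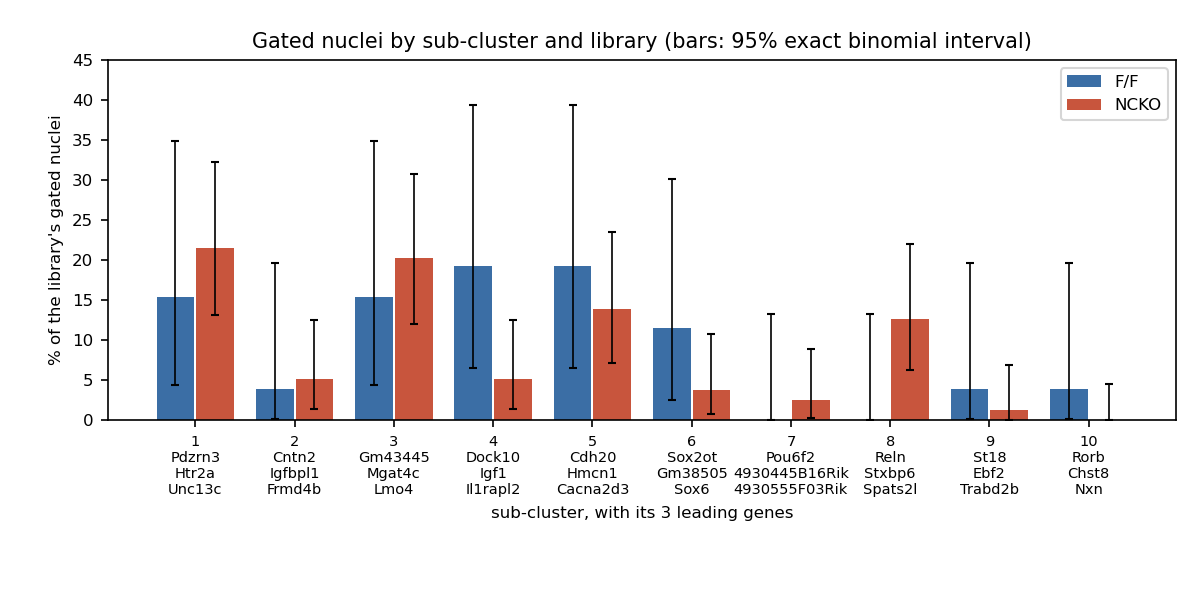
Share of each library's gated nuclei in each of 10 sub-clusters, with exact binomial 95% intervals. The 3 genes below each number lead among all nuclei of that sub-cluster, gated or not. The fourth sub-cluster takes 19.2% in the F/F-labelled library (blue) and 5.06% in the other (red), the eighth 0% and 12.7%, and the intervals overlap throughout.

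The gated nuclei took a larger share of the NCKO-labelled library. They made up 0.402% of its nuclei in the F/F-labelled library (exact binomial 95% interval 0.263% to 0.589%) and 0.736% in the NCKO-labelled library (0.583% to 0.917%), a ratio of 1.83 (1.16 to 2.97). Of excitatory nuclei they were 1.16% and 2.24%. Thinning each nucleus to 2000 UMIs before the gate gave 21 of 5762 and 85 of 9295 nuclei, a ratio of 2.51 (1.54 to 4.26). Thinning can remove the UMIs of an excluded gene, so this set can hold nuclei that the full counts keep out. The whole cluster showed a like ratio, 3.71% against 6.50% of nuclei or 1.75 (1.51 to 2.04), and the gate took 10.0% and 9.74% of it. Nuclei with Nrp2 and at least 5 UMIs of Zbtb20, which share Nrp2 but fall outside the gate, were 1.25% and 1.02% of nuclei. Whether these shares follow the genotype, the dissection or the libraries cannot be told apart with 1 library per label.

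Men1 did not check the labels in so few nuclei. Its UMIs numbered 3 in the F/F-labelled gated nuclei and 1 in the NCKO-labelled ones, 17.5 and 2.14 CPM, and the ratio of 0.122 has bounds of 0.00233 and 1.52. In other excitatory nuclei it was at 9.10 and 16.3 CPM, a ratio of 1.79 (1.42 to 2.26), so the library labelled MEN1-NCKO did not carry less Men1 RNA there. Counts from the 3' end of a gene need not fall in a deleted part.

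Epha4, the receptor that the series title names, was sparse in gated nuclei. It had 6 UMIs in 4 of 26 F/F-labelled nuclei and 29 UMIs in 16 of 79 NCKO-labelled nuclei. The levels were 35.0 CPM (exact Poisson 95% interval 12.9 to 76.3) and 62.2 CPM (41.6 to 89.3), a ratio of 1.77 whose interval, 0.724 to 5.23, includes 1. The ratio was 0.638 (0.512 to 0.797) in the rest of the cluster and 0.606 (0.572 to 0.643) in other excitatory nuclei. Thinned to 2000 UMIs before the gate, which also changes the nuclei chosen, Epha4 had 3 and 5 UMIs and a ratio of 0.412. Its direction in the gated nuclei was not settled at this depth. The other Eph receptors were better counted. Epha3 was lower under the NCKO label, by a ratio of 0.496 (0.442 to 0.556) in gated nuclei, 0.748 in the rest of the cluster and 0.755 in other excitatory nuclei. Epha6 was higher, at 1.47 (1.29 to 1.67) in gated nuclei, 1.20 in the rest of the cluster and 1.10 in other excitatory nuclei. In nuclei with Nrp2 and at least 5 UMIs of Zbtb20 the Epha6 ratio was 0.706 (0.649 to 0.769). Epha5 was level in gated nuclei, at 0.988 (0.894 to 1.09).

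**Figure D4:**
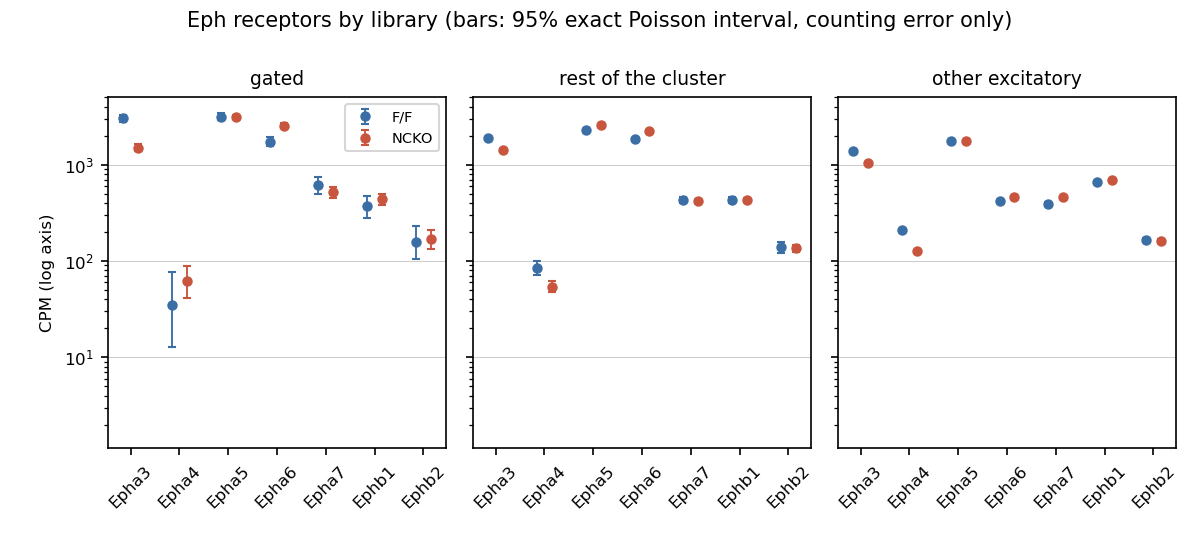
Levels of 7 Eph receptors in gated nuclei, the rest of the cluster and other excitatory nuclei, in CPM on a log axis with exact Poisson 95% intervals (blue F/F, red NCKO). Epha4 lies lowest in gated nuclei and in the rest of the cluster, and its intervals overlap in gated nuclei (35.0 and 62.2 CPM) but not in other excitatory nuclei (208 and 126 CPM).

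Between the libraries, 2315 genes with at least 50 UMIs in the gated nuclei were compared. Past 2-fold on log2(CPM + 5), 61 were higher in the NCKO-labelled library (2.63%) and 22 were lower (0.95%), and the median of all was 0.01. The F/F-labelled side rests on 26 nuclei, and the number of such genes is not comparable with that in larger groups, where 5 of 14270 genes were higher (0.035%) and 31 lower (0.217%) in other excitatory nuclei.

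Among the 12 genes highest in the NCKO-labelled library, 2 were protocadherins, which join neighbouring cells. Pcdh17 had 6 UMIs in 3 F/F-labelled nuclei and 132 UMIs in 30 NCKO-labelled nuclei, 35.0 against 283 CPM, a ratio of 8.07 (3.61 to 22.4), while the rest of the cluster gave 1.18. Pcdh15 had 48 and 441 UMIs, 280 against 945 CPM and a ratio of 3.37 (2.50 to 4.64). Of the 48 UMIs 30 lay in 1 nucleus. Without the nucleus with most UMIs in each library the ratio was 8.10 (5.06 to 13.8). In the rest of the cluster it was 1.03. The list of 20 cadherins and protocadherins had 16 measured members, of which 3 were past 2-fold higher (Pcdh17, Pcdh15 and Cdh8), 0 were lower, and the median was 0.38. Of all 2315 genes 2.63% were past 2-fold higher and 0.95% lower, with a median of 0.01. Pcdh17 and Pcdh15 had already been picked as 2 of the 12 highest genes. Cdh8 was at 222 and 690 CPM.

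Further genes of this direction were Nell1, Galntl6, Spats2l and the zinc finger gene Zfp804b, whose log2 difference turned from 2.70 to -1.39 when nuclei were thinned before the gate. Nell1, which encodes a secreted protein with EGF-like repeats, had 19 and 185 UMIs, 111 against 397 CPM, a ratio of 3.57 (2.22 to 6.07) against 0.835 in the rest of the cluster. Galntl6, a glycosyltransferase, had 23 and 267 UMIs, 134 against 572 CPM, and Spats2l had 7 and 72, 40.9 against 154 CPM. The ratio of Galntl6 was 4.26 in gated nuclei, 1.51 in the rest of the cluster and 1.70 in other excitatory nuclei. That of Spats2l was 3.78, 1.61 and 1.39. The eighth sub-cluster, without F/F-labelled gated nuclei, held 39.7% of the NCKO-labelled Galntl6 UMIs and 48.6% of those of Spats2l. A further setting kept only the 23 F/F-labelled and 56 NCKO-labelled gated nuclei of sub-clusters that held both, and weighted these sub-clusters as in the F/F-labelled library. There Galntl6 stood at -0.05 in place of 2.05 on the log2 scale, Spats2l at 1.04 in place of 1.80, and 11 of the 12 highest genes stayed above 0. Leaving out nuclei and weighting the others were not tried apart. Gm15414, at 17.5 against 148 CPM from 3 and 69 UMIs, is annotated antisense to Tenm4. With the F/F-labelled count at the floor, its gated ratio of 8.44 had an interval of 2.77 to 41.9. Its ratio was 1.93 in the rest of the cluster and 1.59 in other excitatory nuclei. 4930547E14Rik, at 35.0 against 133 CPM from 6 and 62 UMIs, overlaps Epha6 on the opposite strand. Its gated ratio was 3.79 (1.65 to 10.7), against 1.30 in the rest of the cluster and 1.11 in other excitatory nuclei. Whether UMIs of either transcript belong to the overlapping gene was not tested. Filip1l, Vps35l and Crim1 completed the 12, with ratios from 3.35 to 4.59. They had 4, 5 and 8 F/F-labelled UMIs, and their intervals were 1.68 to 17.5, 1.44 to 11.6 and 1.61 to 8.05. Vps35l was level, at -0.016 on the log2 scale, when thinned before the gate.

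The largest ratio was that of an interneuron gene. Nxph1, a neurexin ligand typical of interneurons, had 2 UMIs in the F/F-labelled gated nuclei and 65 in 11 NCKO-labelled ones, a ratio of 11.9 (3.17 to 101). Of these 65 UMIs 25 lay in nuclei with doublet calls. The interneuron genes Dlx6os1 (0 and 14 UMIs, 10 of them in doublet calls) and Adarb2 (38 and 166 UMIs, 137 in doublet calls) were also higher under the NCKO label. Erbb4 had 52 and 200 UMIs (102 in doublet calls) and a ratio of 1.41, Meis2 was lower, at 467 and 345 CPM, and Gad1 had 0 and 1 UMI. With the highest doublet scores left out, Nxph1 stood at 2.49 in place of 3.11 on the log2 scale and all 24 named genes remained past 2-fold. Over the gated nuclei of the main cluster it stood at 1.35, and the part of interneuron RNA in this ratio was not tested. The ratio of Nxph1 was also above 1 in other excitatory nuclei, at 2.14 (1.97 to 2.33). In nuclei with Nrp2 and at least 5 UMIs of Zbtb20 it was below 1, at 0.653 (0.470 to 0.906).

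**Figure D5:**
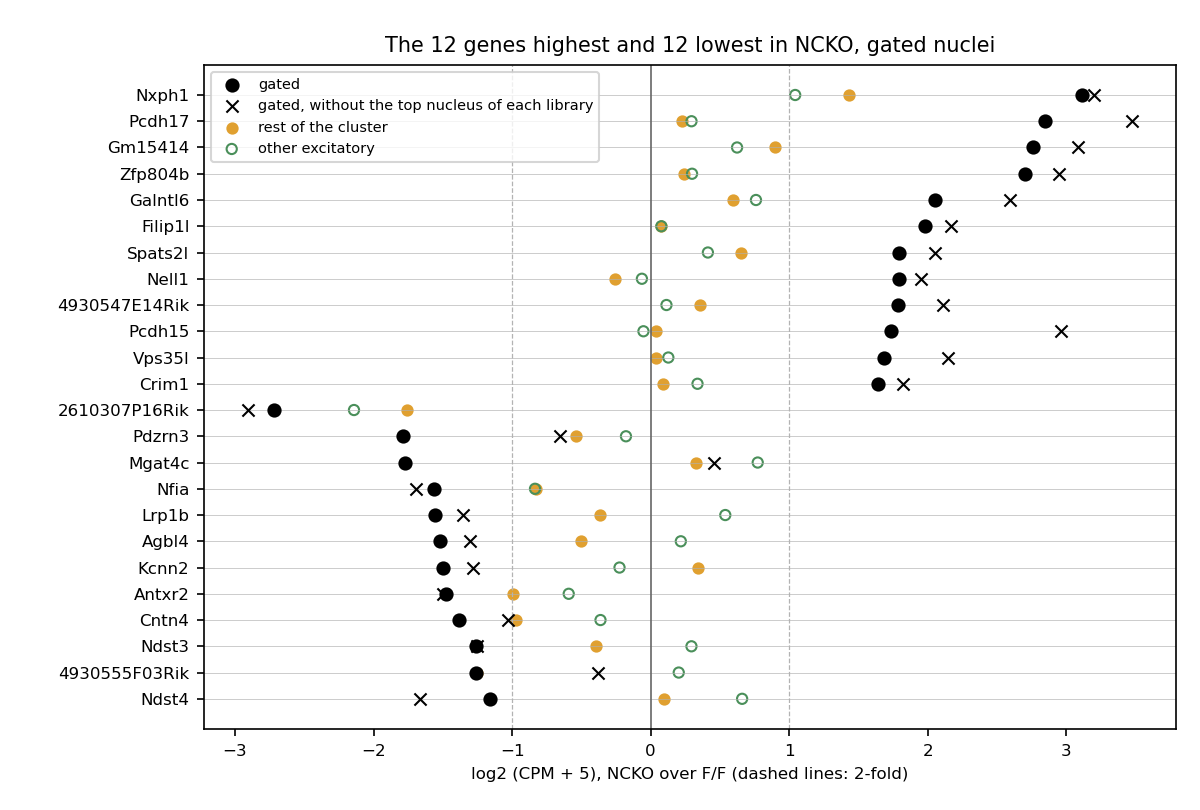
NCKO-labelled over F/F-labelled level on log2(CPM + 5) for the 12 highest and 12 lowest genes in gated nuclei (black), also without the nucleus that holds most UMIs of the gene in each library (crosses), beside the rest of the cluster (orange) and other excitatory nuclei (green). Black points lie beyond the dashed 2-fold lines by the choice of genes, Mgat4c crosses from -1.77 to 0.46, and most orange and green points lie nearer to 0.

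Of the lower genes, 2610307P16Rik was lower in gated nuclei, in the rest of the cluster and in other excitatory nuclei. This noncoding transcript lies near Sox4 on chromosome 13 (GRCm38, minus strand, start 28460034, end 28885620). It had 53 UMIs in 17 of 26 F/F-labelled and 20 UMIs in 9 of 79 NCKO-labelled gated nuclei, 310 against 42.9 CPM, a ratio of 0.138 (0.0784 to 0.236). In comparison it was 0.283 (0.244 to 0.328) in the rest of the cluster and 0.220 (0.209 to 0.231) in other excitatory nuclei. Pantr1, a noncoding RNA beside Pou3f3, had 17 and 7 UMIs and a ratio of 0.151 (0.0530 to 0.383). Sox4 and Sox11 themselves had ratios of 0.763 (0.465 to 1.28) and 1.07 (0.752 to 1.56), with intervals that include 1. Nfia, a nuclear factor of later-born and glial fates, had 57 and 51 UMIs, 333 against 109 CPM, a ratio of 0.328 (0.221 to 0.488), and 0.556 in the rest of the cluster and 0.558 in other excitatory nuclei. Its F/F-labelled UMIs came from 8 nuclei, and 39 of the 57 lay in 3 nuclei of the first sub-cluster. Without the nucleus with most UMIs in each library the Nfia ratio was 0.295 (0.179 to 0.482).

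Several other lower genes were not lower outside the gate or rested on few nuclei. Lrp1b, a large lipoprotein receptor, was at 5460 and 1854 CPM in gated nuclei, a ratio of 0.340 (0.309 to 0.373), against 0.775 in the rest of the cluster and 1.45 in other excitatory nuclei. Its 935 F/F-labelled UMIs came from 11 nuclei, with 305 in 1 nucleus. The third sub-cluster held 36.0% of them in 2 nuclei and the first 33.7% in 4. Without the nucleus with most UMIs in each library the Lrp1b ratio was 0.390 (0.350 to 0.435). Cntn4, an adhesion molecule of the contactin family, was at 929 and 354 CPM, with 69 of the 159 F/F-labelled UMIs in 1 nucleus, and its ratio was 0.381 (0.304 to 0.477) against 0.509 in the rest of the cluster. The first sub-cluster held 76.1% of those F/F-labelled Cntn4 UMIs, from 4 nuclei. It also held 80% of the F/F-labelled UMIs of Pdzrn3, 62.5% for Agbl4 and 50% for Ndst3, but 3.77% for 2610307P16Rik. Mgat4c, a glycosyltransferase, was at 2091 and 609 CPM, but 295 of its 358 F/F-labelled UMIs came from 1 nucleus. Without the nucleus with most UMIs in each library Mgat4c was higher in the NCKO-labelled library, by 0.46 on the log2 scale. Pdzrn3, with 20 of 30 F/F-labelled UMIs in 1 nucleus, went from -1.79 to -0.66, and 4930555F03Rik from -1.26 to -0.38. Agbl4, the potassium channel gene Kcnn2, Antxr2, Ndst3 and Ndst4 completed the 12, with ratios from 0.336 to 0.430. Some of these turned above 0 on the log2 scale under other settings: Kcnn2 to 0.14 over the whole main cluster, Kcnn2 to 0.46 and Ndst3 to 0.61 when thinned before the gate, and Ndst4 to 0.29 with Zbtb20 at 0 UMI. 4930555F03Rik turned to 0.28 with Zbtb20 at 0 UMI and to 0.24 with 3 of the 7 genes.

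Lists with at least 10 measured genes had medians between -0.08 and 0.38 between the libraries. Median log2 differences were 0.17 for the 21 measured synaptic adhesion genes, 0.04 for 19 glutamate receptor genes, 0.12 for 12 potassium channel genes and 0.13 for 13 sodium and calcium channel genes, where the median of all 2315 genes was 0.01. Of those 2315 genes 2.63% were past 2-fold higher and 0.95% lower. Among the adhesion, receptor and channel groups 2 members passed 2-fold, both glutamate receptors and both higher: the metabotropic receptor Grm7 at 923 against 1878 CPM, and the kainate receptor subunit Grik4 at 46.7 against 141 CPM. Of 11 measured Slit, Robo and netrin genes 0 passed 2-fold, with Robo1 at 3130 against 1914 CPM and Robo2 at 1483 against 879. Of 5 measured menin and MLL complex genes 0 passed 2-fold, and their median was 0.10. The 6 measured piriform genes had a median of 0.08, with Reln, at 87.6 against 186 CPM, the 1 past 2-fold. Some lists with fewer measured genes lay further out. The hippocampus list had a median of 1.09 over 3 genes, with Grik4 and Man1a (117 against 255 CPM) past 2-fold, the inhibitory list 0.58 over 4, layer 5 -0.49 over 4, and activin and BMP genes -0.44 over 4. The 20 glycolysis and hypoxia genes summed to 1092 against 684 CPM in gated nuclei, and were lower under the NCKO label in other excitatory nuclei too (1127 against 650 CPM) and in Gad2 nuclei (1161 against 612 CPM).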

How the data were processed

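The values deposited by the authors are raw UMI counts for each gene in each barcode. Per the file headers, Cell Ranger 6.1.0 produced them, on mm10 per the submitters' processing notes, which also name Seurat. Whether counting used strand is not given here. There were 0 unused columns of sample values. GENCODE vM21 holds 32241 of the 33938 gene identifiers and gave the positions.

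The gate was applied to 17198 barcodes with 500 or more genes (30116311 and 50115162 UMIs in all deposited barcodes). Its members and all gene lists were chosen with earlier results of these data known. UMIs were summed per library and scaled to CPM. Levels carry exact Poisson intervals, ratios exact conditional binomial intervals and shares exact Clopper-Pearson intervals, all at 95%. Differences are on log2(CPM + 5). Doublets were called as the highest scores of the Scrublet approach, 0.8% per 1000 barcodes (336 and 924).

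Clusters come from the Leiden algorithm at resolution 1 on 2000 variable genes, 30 components and 20 neighbours (scikit-learn 1.9.0, leidenalg 0.10.2), and sub-clusters at 0.8. Named are Epha4, Men1, list members, the 5 leading genes of clusters, and the 12 highest and 12 lowest genes between libraries with at least 100 UMIs, or 50 where under 2000 genes reach 100 (here 1085). Against other excitatory nuclei, the 20 highest and 10 lowest were named. Alternatives varied the gate, depth, doublets, membership, pseudocount, UMI minimum, scaling, makeup, weighting and reference. The scripts were tested on simulated data. 1 gene of the excitatory criterion is not reported here.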

Additional observations from a re-analysis of the deposited data

Results flagged for a closer look

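Some genes differed between the libraries in gated nuclei in a way that other excitatory nuclei did not share, with ratios on opposite sides of 1 whose counting intervals do not include 1. Each value rests on 1 library per label, and the difference between the groups of nuclei was not tested. Pcdh15 had an NCKO over F/F ratio of 3.37 in gated nuclei and 0.964 in other excitatory nuclei. Mgat4c had 0.291 and 1.72, Lrp1b 0.34 and 1.45, and Agbl4 0.336 and 1.17. Without the nucleus with most UMIs in each library the gated ratio of Mgat4c was 1.38 (1.04 to 1.85), on the same side as other excitatory nuclei, and that of 4930555F03Rik was 0.747 (0.322 to 1.87), which includes 1. Ndst3 had 0.401 and 1.24, Ndst4 0.43 and 1.94, and the lincRNA 4930555F03Rik 0.398 and 1.17. In the rest of the cluster 4 of the 6 genes lower in gated nuclei also had ratios below 1: Lrp1b 0.775, Agbl4 0.699, Ndst3 0.754 and 4930555F03Rik 0.410.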

How the results depend on the processing

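No paired analysis was possible because each label has 1 library and the labels carry no replicate numbers. The share of gated nuclei was higher in the NCKO-labelled library under every alternative run, and the ratio moved most with at least 5 of the 7 positive genes, to 3.44 (7 and 40 nuclei). The Epha4 ratio was 0.661 over all nuclei of the main cluster and 0.412 after thinning before the gate. The Men1 ratio was 0 with 5 of 7 genes, 1.64 over the main cluster and 1.53 without the limit on Hs3st4. Genes past 2-fold numbered 112 higher and 38 lower with 5 of 7 genes, 21 and 34 over the main cluster, 32 and 9 when thinned before the gate, and 35 and 44 with sub-clusters weighted as in F/F. Higher genes were 38 with Zbtb20 at 0 UMI and 25 when thinned after the gate, and lower genes were 35 for gated nuclei of the main cluster and 39 without the limit on Hs3st4. A minimum of 20 UMIs gave 285 and 134, and no minimum 1781 and 1673. Reversed log2 values were 0.24 (at least 3 of 7 genes) and 0.28 (Zbtb20 at 0) for 4930555F03Rik, 0.29 for Ndst4 (Zbtb20 at 0), -0.13 for Nell1 and 0.14 for Kcnn2 (main cluster), -0.046 for Galntl6 (weighted) and 0.46 for Mgat4c (without the top nuclei). Thinning before the gate, which also changes the nuclei chosen, reversed Zfp804b to -1.39, Vps35l to -0.016, Kcnn2 to 0.46 and Ndst3 to 0.61. The cause of these changes was not tested. The alternatives on Slc1a3, Hs3st4, weighting, single nuclei and the matched reference were chosen after seeing the data. Few UMIs limit Epha4 and Men1.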

Other observations

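Genes switched on by neuronal activity or by tissue handling were near 0 in the gated nuclei. The 9 immediate early genes summed to 17.5 CPM in the F/F-labelled and 36.4 CPM in the NCKO-labelled library, and Fos, Fosb, Junb, Arc and Ier2 had 0 UMI in both.

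The X-inactivation transcript Xist was at 2482 and 2814 CPM in the gated nuclei, and the Y-linked genes Kdm5d, Ddx3y, Uty and Eif2s3y had 0 UMI in both libraries. The extraction protocol in the labels speaks of male mice without saying whether the embryos were male.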
